A study of Rattus norvegicus with 12 samples.

Results

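Fatty acid synthesis enzymes were followed in rat liver before and after partial hepatectomy (PH), the removal of most of the liver, in an RNA sequencing study of bile acid flux. The group was given as 10 gene names (FASN, ACACA, ACLY, SCD1, ELOVL6, ELOVL5, ME1, THRSP, GPAM and FADS1), and a gene was taken where its name was a row of the deposited table. Of the 14692 genes listed, 9 were members found in this way, and all 9 had a mean of at least 1 RPKM (reads per kilobase of transcript, scaled to the library's reads). FASN, the fatty acid synthase gene, was not analysed here.

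Livers came from male Sprague Dawley rats, 4 to 5 months old per the study's methods. Control rats had a sham biliary fistula, and the rats titled BA and BF had a biliary fistula, which drains bile to the outside, in each case 24 h before PH. Every rat also had a duodenal catheter with a saline infusion, and 1 of the fistula arms received sodium taurocholate through it at 0.5 mg per g of body weight per day from 12 h before PH. Liver was taken at 0, 4, 12 and 24 h after PH in each of the 3 arms, and 1 table column was deposited per arm and time, 12 in all. The authors averaged 2 runs into each column, the first from 1 rat and the second from RNA combined over 3 rats, so the spread between rats and the number of reads per column are unknown. The labels conflict on the fistula arms. The sample descriptions give the infusion to the samples titled BF, whereas the study's text uses BF for the fistula alone, and below the arms are called by their titles only. CYP7A1, the rate-limiting enzyme of bile acid synthesis, was at 60.0 RPKM in Control, 54.9 in BA and 387 in BF at 0 h, and no arm was renamed from it.

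The 8 hepatocyte markers found summed to between 109880 and 371670 RPKM per column, and the highest sum was in the BA column at 4 h. Most of that sum was ALB (albumin), at 303637 RPKM there and at 41049 to 99928 RPKM in the other columns. Against BA at 0 h, HNF4A, APOA2, TTR and TF were lower and SERPINA1, CPS1 and FGB higher in the BA column at 4 h. That column stood apart in its scale as well, with a total of 982826 RPKM, of which the 10 most abundant genes took 53.3%, against totals of 727435 to 785092 RPKM and shares of 29.4% to 41.0% in the other columns. Pancreatic acinar markers (12 found) summed to 149 RPKM in the BF column at 12 h and to at most 23.4 RPKM in any other column. Values without either column are given where they change a call. In whole liver, fewer cells of a type and less RNA per cell cannot be told apart.

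Hepatocytes make fatty acids from citrate that leaves the mitochondrion. ACLY (ATP citrate lyase) cleaves citrate to acetyl-CoA, ACACA (acetyl-CoA carboxylase alpha) turns this into malonyl-CoA, and fatty acid synthase builds the chain with NADPH that ME1 (cytosolic malic enzyme) helps to supply. SCD1 adds the first double bond, ELOVL6 lengthens saturated chains, ELOVL5 and FADS1 lengthen and desaturate polyunsaturated ones, and GPAM (mitochondrial glycerol phosphate acyltransferase) commits the product to glycerolipids. THRSP (Spot 14) is a small protein that promotes lipogenesis and responds to thyroid hormone and carbohydrate. In liver the pathway is known to be induced by insulin and feeding through the transcription factors SREBP-1c, ChREBP and LXR.

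RefSeq promoters of the GRCr8 rat assembly, matched by symbol or synonym, were at hand for 7 of the 9 members, and ACACA and ELOVL6 were not among them. Shown here are the 250 bases before the start for THRSP, FADS1, ACLY and ELOVL5 and for SCD1 (Scd in RefSeq). The first 4 were the members called lower at 12 h in the fit below, at an adjusted p under 0.05. The fitted level of SCD1 was higher at 12 h without such a call. GPAM and ME1, also not called at 12 h, are not shown. Capitals mark CCAAT boxes (CCAAT, or ATTGG on the other strand) and the E-box CACGTG.
Thrsp, chr1:161138965-161139214, minus strand: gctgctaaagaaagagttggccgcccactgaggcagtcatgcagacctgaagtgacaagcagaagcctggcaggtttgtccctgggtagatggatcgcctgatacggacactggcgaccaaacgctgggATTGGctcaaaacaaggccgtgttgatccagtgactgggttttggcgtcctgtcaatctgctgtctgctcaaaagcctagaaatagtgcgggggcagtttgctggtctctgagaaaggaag
Fads1, chr1:216252442-216252691, plus strand: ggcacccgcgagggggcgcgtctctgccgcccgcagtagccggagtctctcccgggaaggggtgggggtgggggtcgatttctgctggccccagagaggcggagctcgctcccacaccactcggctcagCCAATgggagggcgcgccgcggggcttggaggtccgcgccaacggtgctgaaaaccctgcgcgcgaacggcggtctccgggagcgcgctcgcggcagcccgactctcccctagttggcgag
Acly, chr10:85963632-85963881, minus strand: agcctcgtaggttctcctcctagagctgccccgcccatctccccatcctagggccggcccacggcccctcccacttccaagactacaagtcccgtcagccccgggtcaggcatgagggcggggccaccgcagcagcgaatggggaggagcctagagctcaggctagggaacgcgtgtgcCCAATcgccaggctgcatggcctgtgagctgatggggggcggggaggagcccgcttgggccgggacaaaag
Elovl5, chr8:87670914-87671163, plus strand: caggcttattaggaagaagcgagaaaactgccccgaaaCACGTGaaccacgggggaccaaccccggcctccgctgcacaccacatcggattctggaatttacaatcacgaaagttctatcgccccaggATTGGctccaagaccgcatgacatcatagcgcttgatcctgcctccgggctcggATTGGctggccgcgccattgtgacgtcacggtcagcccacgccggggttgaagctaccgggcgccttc
Scd, chr1:253231732-253231981, minus strand: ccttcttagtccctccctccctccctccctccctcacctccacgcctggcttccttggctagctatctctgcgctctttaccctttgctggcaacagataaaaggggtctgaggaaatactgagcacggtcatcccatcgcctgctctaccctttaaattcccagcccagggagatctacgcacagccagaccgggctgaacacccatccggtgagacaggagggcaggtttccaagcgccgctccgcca

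A CCAAT box was found in 5 of the 7 member promoters (THRSP, FADS1, ACLY, ELOVL5 and GPAM) and in 34.0% of the 33469 rat promoter windows of the same length. SCD1 and ME1 held none. Its first base lay 121 bases before the start in THRSP and in FADS1, 71 bases before it in ACLY, 122 and 68 bases before it in ELOVL5 and 174 bases before it in GPAM. The E-box occurred in ELOVL5 alone among the 7, against 5.59% of all windows, and overlapped no CCAAT box. The core of the sterol regulatory element, TCACNCCAC, was in none of the 7 windows and in 0.974% of all windows. Each motif was searched on both strands. These matches describe letters in a window only.

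**Figure D1:**
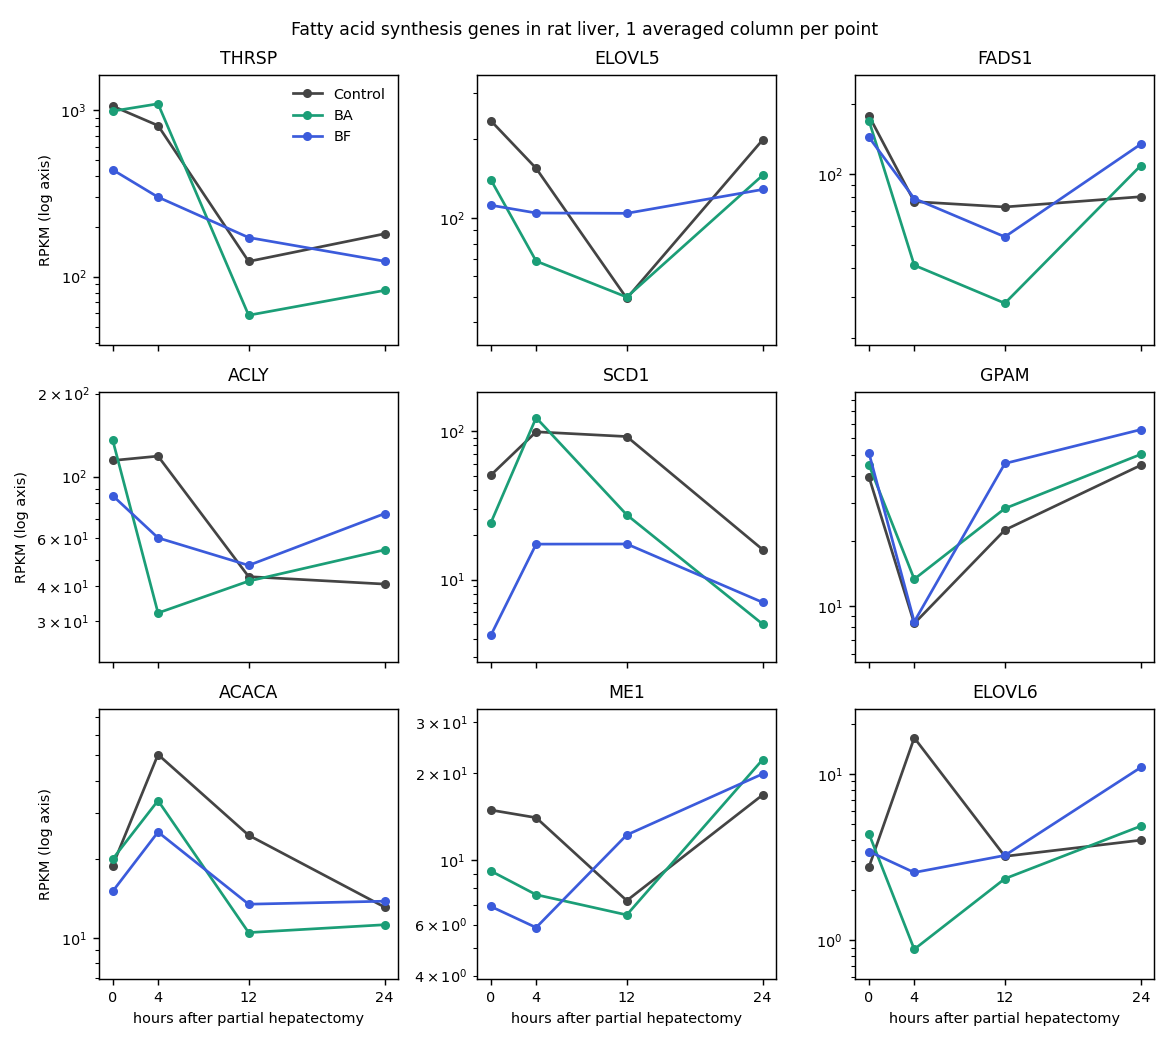
RPKM (log axis, 1 panel per gene with its own range) of the 9 members at 0, 4, 12 and 24 h after PH in the Control, BA and BF arms, each point being 1 averaged column without an error. THRSP falls from 1060.5 to 123 RPKM between 0 and 12 h in Control, GPAM dips to 8.34 to 13.4 RPKM at 4 h in the 3 arms, and SCD1 starts at 4.21 RPKM in BF against 50.4 in Control.

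Levels at 0 h differed widely between members. In Control, THRSP was the most abundant at 1060.5 RPKM, followed by ELOVL5 at 235 and FADS1 at 178, and ELOVL6 was the least at 2.75 RPKM. Over the 12 columns SCD1 varied most, with a 29.2-fold range from 4.21 RPKM (BF at 0 h) to 123 RPKM (BA at 4 h), and ME1 least, with a 3.80-fold range. The standard deviation of the log2 level over the columns was larger for SCD1 than for 99.0% of the 8459 genes tested, and larger for ME1 than for 85.5% of them. Together the members took 0.23% of the RPKM total of the Control column at 0 h, 0.184% at 4 h, 0.0598% at 12 h and 0.0813% at 24 h. THRSP made up most of it at 0 and 4 h, and at 24 h ELOVL5, at 199 RPKM, was above THRSP, at 181.

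To ask which members changed after PH, log2(RPKM + 1) was fitted with limma over all 8459 genes with arm and time as additive terms, so that the 3 arms stand as the repeated observations of a time change. The residual measures how far the arms disagree and is not the spread between rats. The 3 time comparisons share the 0 h columns. In the counts of this fit, a gene rose or fell where its adjusted p was under 0.05. At 4 h, SCD1 and ACACA rose and GPAM and FADS1 fell, 2 of 9 members in each direction. Among all genes tested, 12.9% rose and 32.4% fell at 4 h. At 12 h, THRSP, FADS1, ACLY and ELOVL5 fell, 4 of 9 members, against 22.5% of all genes, and no member rose, against 9.03%. At 24 h THRSP alone passed the test, as lower, when 5.54% of all genes fell and 30.6% rose. Without passing, ACLY (log2 difference -0.996), FADS1 (-0.62, adjusted p = 0.14) and ACACA (-0.47, adjusted p = 0.14) were also below 0 h in all 3 arms. GPAM, ELOVL6 and ME1 were above 0 h in all 3 arms at 24 h, also without passing. The share of all genes with the same direction in all 3 arms was not counted. The members' median fitted log2 difference was -0.26 at 4 h, -0.53 at 12 h and -0.47 at 24 h, and the median over all genes was -0.20, -0.12 and 0.21.

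**Figure D2:**
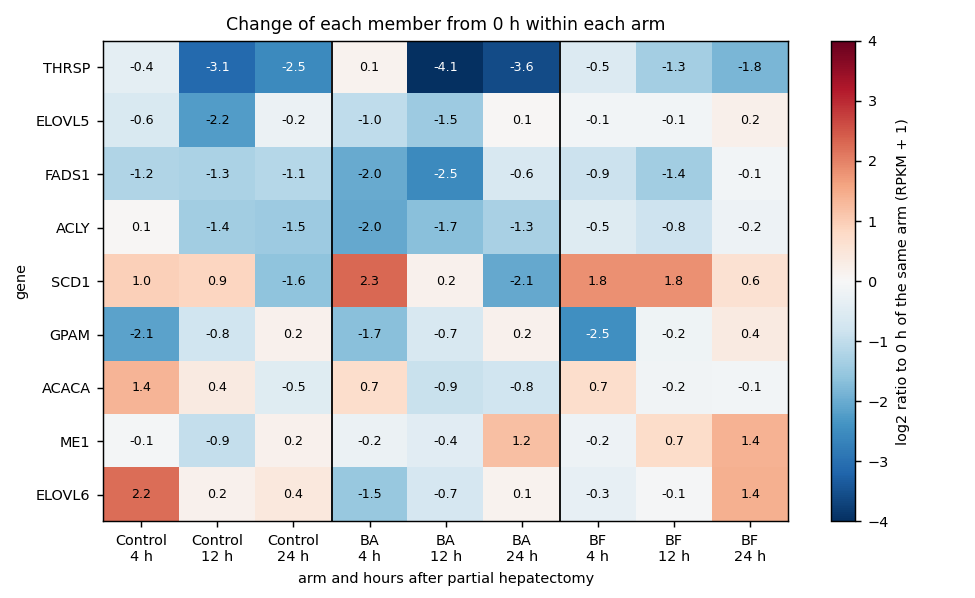
Log2 ratio of RPKM + 1 to the 0 h column of the same arm, for each member (rows) and each arm and time (columns), with red for higher and blue for lower. The lowest cell is THRSP in BA at 12 h, at -4.06, and the highest is SCD1 in BA at 4 h, at 2.30.

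Among the enzymes that supply precursors, ACLY was at 114, 119, 43.4 and 40.8 RPKM at 0, 4, 12 and 24 h in Control. In BA it was at 136, 32.0, 41.8 and 54.2 RPKM, and in BF at 85.3, 60.0, 47.7 and 73.4 RPKM. All 3 arms were below their 0 h value at 12 h, but at 4 h Control stayed near its 0 h level while BA was 4.24-fold lower. The fitted log2 difference at 4 h was -0.83 (SE 0.40, adjusted p = 0.11), and it passed the test without the Control arm. At 12 h it was -1.29 (SE 0.40, adjusted p = 0.035). The 12 h call was lost without the Control arm (adjusted p = 0.063), without BA (0.097), without BF (0.11) and without the BF column at 12 h (0.075). At 24 h the difference was -0.996 (SE 0.40, adjusted p = 0.077), and it passed without the BA column at 4 h (adjusted p = 0.030). ME1 was at 14.9, 14.0, 7.26 and 16.8 RPKM in Control, at 9.19, 7.61, 6.48 and 22.3 in BA and at 6.93, 5.86, 12.2 and 19.9 in BF. Its highest value was at 24 h in each arm, with a fitted log2 difference of 0.92 (SE 0.33, adjusted p = 0.054) that did not pass the test. Without the Control arm it passed (adjusted p = 0.042), and without the BF column at 12 h the adjusted p was 0.023.

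At the committed step, ACACA was at 18.9, 50.4, 24.7 and 13.1 RPKM in Control, at 20.0, 33.6, 10.5 and 11.2 in BA and at 15.1, 25.4, 13.5 and 13.8 in BF. It was highest at 4 h in every arm, and the fitted log2 rise was 0.93 (SE 0.23, adjusted p = 0.011). Without the Control arm the rise was 0.72 (adjusted p = 0.055). THRSP was at 1060.5, 810.2, 123 and 181 RPKM in Control, at 989, 1095, 58.5 and 82.6 in BA and at 439, 301, 172 and 124 in BF. The 0 and 4 h values of every arm lay above all 12 and 24 h values. The fitted log2 difference was -0.26 at 4 h (SE 0.53, adjusted p = 0.71), -2.83 at 12 h (adjusted p = 0.0048) and -2.64 at 24 h (adjusted p = 0.0056). Without the Control arm the 12 and 24 h differences were -2.70 and -2.69, with adjusted p of 0.070 and 0.062. The 0 h level was 8.60-fold the 12 h level in Control, 16.9-fold in BA and 2.56-fold in BF, values with no test of their difference.

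Of the genes for chain modification, SCD1 was at 50.4, 98.7, 91.7 and 15.9 RPKM in Control, at 24.1, 123, 27.3 and 5.01 in BA and at 4.21, 17.3, 17.4 and 7.02 in BF. It was above its 0 h value at 4 h in all 3 arms, by 1.96-fold in Control, 5.10-fold in BA and 4.11-fold in BF, and the fitted log2 rise was 1.69 (SE 0.53, adjusted p = 0.028). The call was lost without the BA column at 4 h (1.08, adjusted p = 0.12), without the Control arm (2.06, 0.066) and without the BA arm (1.38, 0.076). At 24 h Control and BA were below their 0 h values and BF was above it. A paralog listed as SCD (Scd2 in RefSeq) stayed between 0.87 and 2.73 RPKM, and how reads shared by paralogs were counted is not given in the sources used here.

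ELOVL6 was at 2.75, 16.5, 3.19 and 3.99 RPKM in Control, at 4.36, 0.88, 2.34 and 4.85 in BA and at 3.41, 2.55, 3.23 and 10.9 in BF. The 4 h columns pointed in opposite directions, with Control 5.99-fold above and BA 4.95-fold below its 0 h value. The fitted log2 differences were 0.13 at 4 h (SE 0.64, adjusted p = 0.88), -0.19 at 12 h (adjusted p = 0.84) and 0.66 at 24 h (adjusted p = 0.44), and the 4 h value was -0.91 without the Control arm. The adipocyte markers ADIPOQ (adiponectin), RETN (resistin) and LEP (leptin) were at 2.03, 1.36 and 0.17 RPKM in the Control column at 4 h, their highest values over the 12 columns. ADIPOQ was at 0.83 RPKM in the BF column at 24 h and at 0.72 in Control at 24 h, where ELOVL6 was at 10.9 and 3.99. It was at 0.02 RPKM in the BA column at 4 h and at 0.01 in BF at 0 h, where ELOVL6 was at 0.88 and 3.41. In BA at 24 and 0 h ADIPOQ was at 0.11 and 0.06 RPKM. ELOVL6 was there at 4.85 and 4.36 RPKM, above its value in Control at 24 h. Over the 8 adipocyte markers found, the summed level was 42.2 RPKM in the Control column at 4 h and 92.9 RPKM, the highest, in the BA column at 4 h. Over the arms it was 18.7 to 42.2 RPKM (Control), 31.0 to 92.9 RPKM (BA) and 25.0 to 50.5 RPKM (BF), most of it FABP4 in the columns with the highest sums. LEP was at 0 in 9 of the 12 columns. LIPE, FABP4, LPL, CFD and PPARG each had their highest value in a column other than Control at 4 h. The part of adipose RNA in the ELOVL6 and ACACA values of the Control column at 4 h was not tested.

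For the polyunsaturated branch, FADS1 was at 178, 76.6, 72.6 and 80.3 RPKM in Control, at 169.6, 41.0, 28.2 and 109 in BA and at 144, 78.9, 54.2 and 135 in BF. Every arm was lower at 4 and 12 h than at 0 h, and the ranges of the 0 h columns and of the 4 and 12 h columns did not overlap. The fitted log2 fall was -1.36 at 4 h (SE 0.31, adjusted p = 0.0067) and -1.74 at 12 h (adjusted p = 0.0038), and both passed the test without any 1 arm. ELOVL5 was at 235, 155, 49.5 and 199 RPKM in Control, at 140.1, 68.6, 49.99 and 146 in BA and at 112, 105, 104 and 129 in BF. Control and BA dipped at 12 h, by 4.76-fold and 2.80-fold, and BF was at 93.1% of its 0 h level. The fitted log2 difference at 12 h was -1.27 (SE 0.34, adjusted p = 0.022). It was -0.79 without the Control arm (adjusted p = 0.19), -1.16 without the BA arm (adjusted p = 0.13) and -1.74 without the BF column at 12 h (adjusted p = 0.0036).

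GPAM, at the entry to glycerolipids, was at 39.8, 8.34, 22.6 and 45.1 RPKM in Control, at 45.2, 13.4, 28.4 and 50.6 in BA and at 51.3, 8.50, 45.9 and 65.9 in BF. All 3 arms had their lowest value at 4 h and their highest at 24 h, and the 4 h columns did not overlap those of any other time. The fall at 4 h was the firmest change of a member, with a fitted log2 difference of -2.09 (SE 0.21, adjusted p = 0.00030), and it passed the test without any 1 arm. At 12 h the difference was -0.53 (SE 0.21, adjusted p = 0.077) and at 24 h it was 0.23 (adjusted p = 0.40). At 12 h it passed without the BF arm (-0.72, adjusted p = 0.037), without the BF column at 12 h (-0.76) and without the BA column at 4 h.

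Counted by single columns, in which a change of 2-fold or more on the RPKM + 1 scale was taken as the limit and no test was possible, the members changed 12 of 27 times at 4 h, and 6 of these were in BA. In Control at 4 h, ACACA and ELOVL6 were higher by this limit and GPAM and FADS1 lower, against 4.01% and 5.19% of all genes. In BA, SCD1 was higher (4.61% of all genes) and ACLY, ELOVL6, ELOVL5, GPAM and FADS1 were lower (13.2%). In BF, SCD1 was higher (5.13%) and GPAM lower (6.92%). At 12 h, ACLY, ELOVL5, THRSP and FADS1 were lower in both Control (9.94% of all genes) and BA (5.77%), with no member higher (3.96% and 1.29%). In BF, THRSP and FADS1 were lower (5.15%) and SCD1 was higher (2.46%). At 24 h, ACLY, SCD1, THRSP and FADS1 were lower in Control (3.03%) and none was higher (8.29%). In BA, ACLY, SCD1 and THRSP were lower (1.41%) and ME1 was higher (3.83%). In BF, THRSP was lower (1.88%) and ME1 and ELOVL6 were higher (9.27%).

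**Figure D3:**
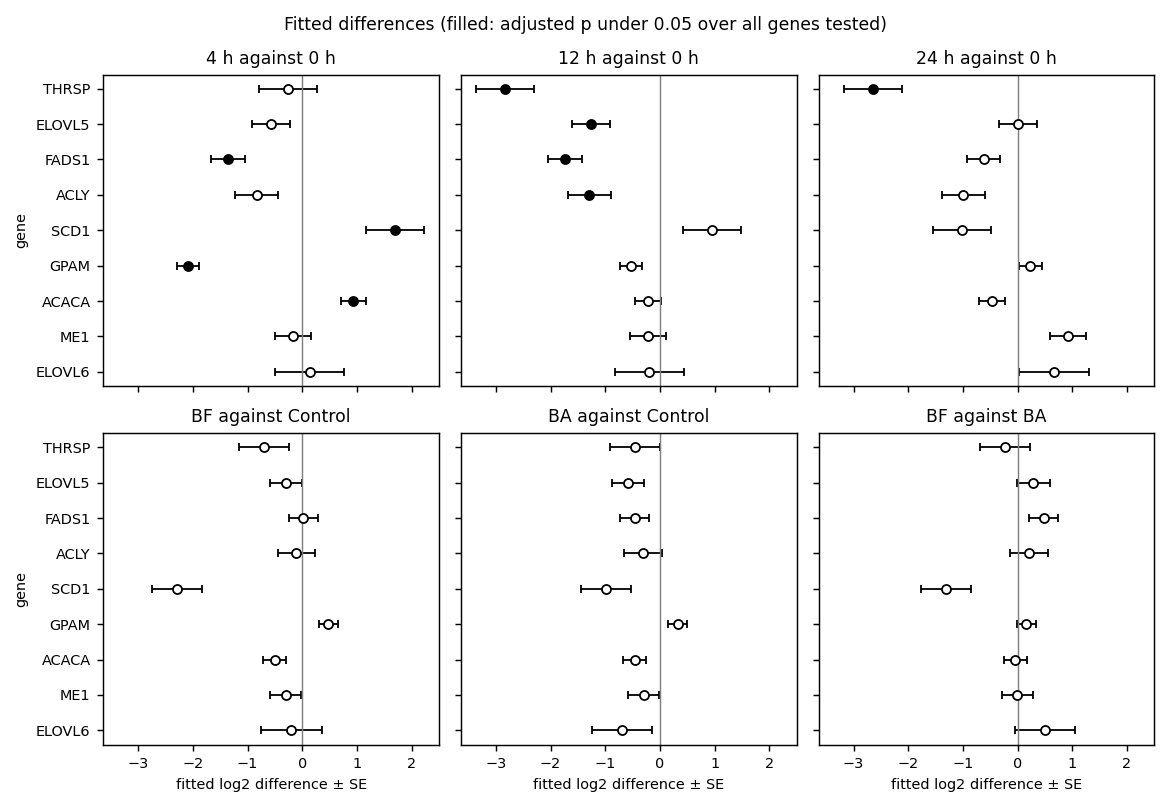
Fitted log2 differences of the 9 members (points) with their SE (bars) for 4, 12 and 24 h against 0 h (12 columns, arms as a block) and for the arms over 4 times (12 columns, times as a block), with filled points for adjusted p under 0.05 over all 8459 genes. GPAM at 4 h (-2.09) and THRSP at 12 h (-2.83) are filled, and no arm difference is, SCD1 in BF against Control (-2.29) being the farthest from 0.

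The members thus did not share 1 time course. Across the 12 columns, which share arms and times, Pearson's r between pairs of members ran from -0.81 (ACACA and GPAM) to 0.75 (ACLY and FADS1), with a median of 0.27 over 36 pairs, of which 23 were above 0. ACACA and SCD1 had r = 0.74, and SCD1 and GPAM -0.66. By the mean of the standardised members, the BA column at 12 h was lowest, with 1 of 9 members above its own mean, and the Control columns at 4 and 0 h and the BA column at 0 h were the 3 highest, with 7, 8 and 8. Of the members, SCD1, GPAM and ACACA followed this mean least (r = 0.065, 0.12 and 0.36), and ACLY followed it most closely (0.82). The 5 other genes whose levels were most like this mean over the 12 columns were ACN9 (r = 0.93), KHK, the ketohexokinase of fructose metabolism (0.92), SLC44A2 (0.92), DEPDC2 (0.90) and HACL1, a lyase of peroxisomal fatty acid alpha-oxidation (0.90). KHK was at 285, 216, 112 and 174 RPKM in Control, at 179, 90.2, 78.4 and 136 in BA and at 185, 106, 122 and 159.9 in BF.

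To ask whether the arms differed, the same fit took the 4 times as repeated observations. No member passed the test in BF against Control, BA against Control or BF against BA, and over all genes 0.804%, 0.0709% and 0.0118% passed. At an unadjusted p under 0.05 the share of all genes was 21.9%, 22.7% and 7.81%, and among the 9 members it was met by SCD1, GPAM and ACACA in BF against Control, by ACACA in BA against Control and by SCD1 in BF against BA. SCD1 in BF against Control came closest, with a fitted log2 difference of -2.29 (SE 0.46, adjusted p = 0.060). Its level in BF was below that in Control at every time. The Control level was 12.0-fold the BF level at 0 h, 5.70-fold at 4 h, 5.28-fold at 12 h and 2.26-fold at 24 h. The adjusted p ran from 0.021 to 1.00 over the alternatives, with the first from columns rescaled to a common sum and the second from a fit without the time block, and it was 0.044 without the BA column at 4 h. Against BA, SCD1 in BF had a fitted log2 difference of -1.31 (SE 0.46, adjusted p = 0.54), and in BA against Control it was -0.98 (SE 0.46, adjusted p = 0.23). These 3 comparisons share columns. GPAM had a difference of 0.48 between BF and Control (SE 0.18, adjusted p = 0.17) and ACACA one of -0.51 (SE 0.20, adjusted p = 0.19).

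Between single columns, which carry no test, some members differed by at least 2-fold between a fistula arm and Control at every time. At 0 h, before PH, 4 of 9 members were at least 2-fold lower in BF than in Control (THRSP, SCD1, ELOVL5 and ME1), where 2.16% of all genes were. At 4 h 4 members were (THRSP, SCD1, ME1 and ELOVL6), against 3.16% of all genes, and at 12 h 1 member was (SCD1), against 1.68%, while ELOVL5 was at least 2-fold higher in BF (1.84%). In BA, SCD1 alone was at least 2-fold below Control at 0 h (2.15% of all genes). ACLY, ELOVL5 and ELOVL6 were so at 4 h (5.26%), and THRSP, FADS1, SCD1 and ACACA at 12 h (1.12%). At 24 h 1 of 9 members in BF (SCD1) and 2 of 9 in BA (SCD1 and THRSP) were at least 2-fold below Control, against 1.31% and 1.32% of all genes. ELOVL6 was at least 2-fold higher in BF at 24 h (0.768%).

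Other genes of fatty acid metabolism were counted in the same fit, and no list was tested against the rest of the genes. For reference, 32.4% of all genes fell and 12.9% rose at 4 h, 22.5% fell and 9.03% rose at 12 h, and 5.54% fell and 30.6% rose at 24 h. Of 13 further synthesis, elongation and desaturation genes tested, 7 fell and 1 rose at 4 h and 5 fell and 1 rose at 12 h. Their median log2 difference was -0.57 at 4 h and -0.37 at 12 h, against -0.20 and -0.12 over all genes. FADS2, which works in sequence with FADS1, was at 469, 287 and 224 RPKM at 0 h in Control, BA and BF and at 28.9, 20.3 and 34.7 RPKM at 12 h, a fitted log2 difference of -3.46 (SE 0.36, adjusted p = 0.00050). ACACB, the carboxylase that controls fatty acid entry into mitochondria, fell by 2.86 on the log2 scale at 12 h (SE 0.19, adjusted p = 0.00014), from 9.77 to 0.63 RPKM in Control. ACSL1, which activates fatty acids, fell by 2.44 at 12 h (SE 0.26, adjusted p = 0.00054). ELOVL2 was 1.33 higher at 24 h (SE 0.27, adjusted p = 0.0060).

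Of 15 regulators tested, 6 fell and 1 rose at 4 h, when 32.4% and 12.9% of all genes did. At 12 h 7 fell, against 22.5% of all genes, and at 24 h 2 rose, against 30.6%. Their median log2 difference was -0.27, -0.39 and 0.06 at 4, 12 and 24 h. SREBF1 and MLXIPL, which encode SREBP-1 and ChREBP, were not analysed here. MID1IP1, a relative of THRSP, was at 55.9, 45.0 and 21.3 RPKM at 0 h in Control, BA and BF and at 2.86, 4.06 and 6.15 RPKM at 4 h, a fitted log2 difference of -2.90 (SE 0.37, adjusted p = 0.00062). NR1H3, the gene of LXR alpha, had a fitted log2 difference of -1.29 at 4 h (SE 0.16, adjusted p = 0.00060). Of 13 genes for acetyl-CoA and NADPH supply, 2 rose and 2 fell at 4 h, 4 fell at 12 h (22.5% of all genes), and 4 rose and 2 fell at 24 h (30.6% and 5.54%). ACSS2, the cytosolic acetyl-CoA synthetase, fell by 1.95 at 12 h (SE 0.37, adjusted p = 0.0052). Of 18 genes for glycerolipid assembly and lipid droplets, 4 rose and 6 fell at 4 h, the latter close to the 32.4% of all genes. Within this list, LPIN1 rose at 4 h by 2.01 (SE 0.41, adjusted p = 0.0046) while LPIN2, which encodes another phosphatidate phosphatase, fell by 1.92 (SE 0.21, adjusted p = 0.00041). DGAT2, which makes triglyceride, fell by 1.28 at 4 h (SE 0.22, adjusted p = 0.0022).

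**Figure D4:**
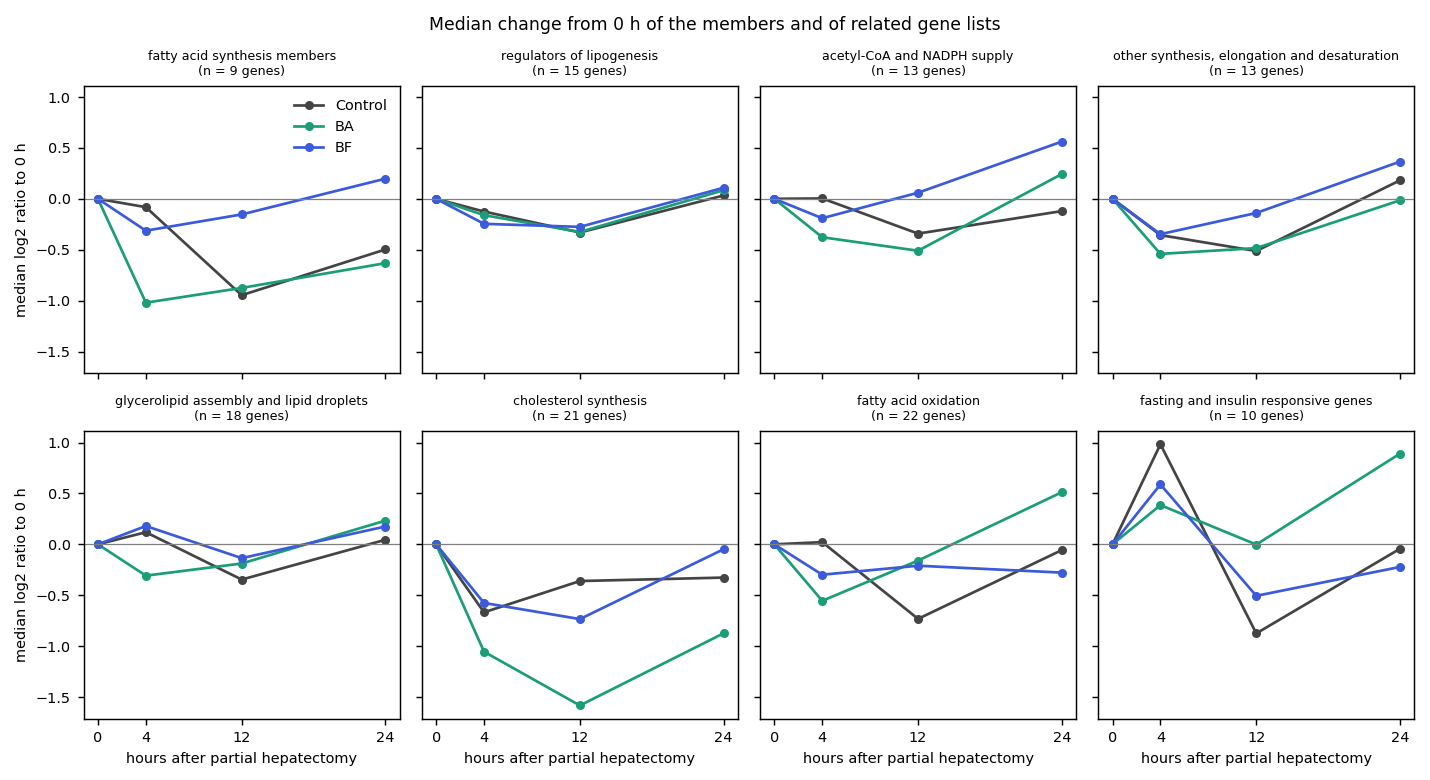
Median log2 ratio of RPKM + 1 to the 0 h column of the same arm (1 line per arm) for the 9 members and 7 related gene lists, the number of genes being given above each panel. The members' medians at 12 h are -0.95 in Control, -0.88 in BA and -0.15 in BF, and cholesterol synthesis is lowest in BA at 12 h, at -1.58.

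Among the neighbouring pathways, cholesterol synthesis lay on the other side of Control from most members, a difference between lists that was not tested. Of 21 cholesterol synthesis genes, 11 fell at 4 h (32.4% of all genes) and 12 at 12 h (22.5%). By the fitted difference over the 4 times, all 21 were above Control in both fistula arms, and 7 passed the test in BF (0.804% of all genes in either direction). By the same measure, 2 of the 9 members were above Control in BF and 1 in BA. The members' median log2 difference from Control was -0.30 in BF and -0.46 in BA. The median of all genes was also below 0, at -0.11 and -0.135. Above Control in BF and BA were 4 and 3 of 15 regulators, and 3 and 2 of 13 genes for acetyl-CoA and NADPH supply. The further synthesis genes gave 7 and 6 of 13, and the glycerolipid genes 9 and 4 of 18. Fatty acid oxidation gave 13 and 6 of 22, and the fasting and insulin genes 8 and 7 of 10. The share of all genes above Control was not counted. HMGCS1 in BF against Control had a fitted log2 difference of 1.78 (SE 0.26, adjusted p = 0.024). Of 22 fatty acid oxidation genes, none passed the limma test at 4 h, when 32.4% of all genes fell and 12.9% rose. None passed at 24 h, when 5.54% of all genes fell and 30.6% rose. At 12 h 5 fell, close to the 22.5% of all genes. Among them were EHHADH of peroxisomal oxidation, with a log2 difference of -2.95 (SE 0.57, adjusted p = 0.0057), and ACADM, the medium-chain dehydrogenase, with -1.08 (SE 0.25, adjusted p = 0.012).

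Of the 10 genes tested that respond to fasting and insulin, 3 rose at 4 h (12.9% of all genes) and 2 fell at 12 h (22.5%). IGFBP1, which insulin represses, was at 7.62, 63.8 and 154.5 RPKM at 0 h in Control, BA and BF and at 637, 1182 and 406 RPKM at 4 h, a fitted log2 rise of 3.93 (SE 0.75, adjusted p = 0.0032). Their part in the members' changes was not tested.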

How the data were processed

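Poly(A) RNA of whole rat liver was sequenced in 50-base single reads. The authors deposited RPKM values, rounded to 2 decimals, in 1 table, and the weighting of the 2 runs behind a column is not given in the sources used here. The submitters' processing notes name CASAVA, Bowtie 0.12.2 and the builds rn4 and mm8 without a role. RPKM divides by the total of a library, so very abundant genes lower the rest. Samples were grouped by title. Of 14692 genes, 1 had no value and 2303 were at 0 throughout, and the 8459 whose mean reached 1 RPKM were tested. Log2(RPKM + 1), which understates changes of low genes, was fitted in limma 3.58.1 (R 4.3.3) with a mean-variance trend and additive arm and time terms (6 residual degrees of freedom), with Benjamini-Hochberg adjusted p under 0.05 over all genes tested. The study ran gene set enrichment, which was not used. Single columns were compared by a 2-fold limit without a test. The fit was tested on simulated data. Python 3.11.15, numpy 2.4.6, pandas 2.3.3 and matplotlib 3.10.9 were used. The members, lists and tests were chosen with earlier results of these data known. Genes named from the lists are among the 5 per list with the largest fitted difference in any comparison, and SCD was added after its values were seen. The alternatives were another pseudocount (0.1 or 5 RPKM), no filter, rescaled columns, no trend, no block, exchanged names, and columns, arms or times left out. Leaving out the BA column at 4 h was chosen after seeing the data. RefSeq sequences of GRCr8 were used for promoters only, and no coordinate was moved between builds.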

Additional observations from a re-analysis of the deposited data

Results flagged for a closer look

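ELOVL6 moved by at least 2-fold in opposite directions between 0 and 4 h in 2 arms, from 2.75 to 16.5 RPKM in Control and from 4.36 to 0.88 RPKM in BA, a difference of 3.73 between their log2 changes. The difference was not tested, since each arm has 1 averaged column per time. The limit of 2-fold in each direction was set after seeing the data, and no other member met it. The adipocyte markers ADIPOQ, RETN and LEP were highest in the Control column at 4 h, whereas the sum of all 8 was highest in the BA column at 4 h (92.9 RPKM against 42.2). LIPE, FABP4, LPL, CFD and PPARG each had their highest value in a column other than Control at 4 h. The part of adipose RNA in the ELOVL6 values was not tested.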

How the results depend on the processing

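No paired analysis was possible because each group has 1 column and the labels give no replicate numbers, so arms and times served as blocks instead. The alternatives limit which calls can be relied on, and the cause was not tested where a call changed. At 24 h against 0 h the number of members passing the test went from 1 to 2 with a pseudocount of 5 RPKM, without the BF column at 12 h (each adding ME1) and without the BA column at 4 h (adding ACLY), and to 4 (THRSP, ACLY, ACACA and FADS1) with columns rescaled on their median gene. That rescaling moved the median of all genes at 24 h from 0.21 to -0.076 and the genes called higher and lower from 2587 and 469 to 874 and 1448. At 4 h the same counts went from 1090 and 2743 to 1531 and 2121, and at 12 h from 764 and 1900 to 1362 and 1413. In BF against Control the number of members went from 0 to 1 (SCD1) with columns rescaled to a common sum and without the BA column at 4 h. SCD1 at 4 h was not called without the filter (adjusted p = 0.052) or the arm block (0.17), nor ACLY at 12 h without the filter (0.062) or with a common sum (0.062). Leaving out 1 arm in turn gave 1 to 4 members at 12 h. The 2-fold changes of members from 0 h at 4 h went from 12 of 27 to 6 without the BA column at 4 h. That column's own values left the count by construction, so the number of values compared fell as well. Exchanging the BA and BF names turned the members' median in BF against BA from 0.16 to -0.16 by construction.

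Members that did not pass the test changed sign as follows. At 4 h ELOVL6 was -0.017 with a pseudocount of 0.1 RPKM and -0.91 to 0.95 with 1 arm left out. With 1 arm left out, ACACA at 12 h ran from -0.51 to 0.11, ELOVL6 from -0.37 to 0.050 and ME1 from -0.70 to 0.15, and ELOVL5 at 24 h ran from -0.092 to 0.13. On the median gene, the 24 h values were -0.33 for ELOVL5 and -0.098 for GPAM, and ACLY in BF against Control was 0.021. With a common sum, FADS1 in BF against Control was -0.028, and in BF against BA ACACA was 0.044 and ME1 0.073. Without the BA column at 4 h, ACLY was 0.054 in BA against Control and -0.16 in BF against BA, where THRSP was 0.19. Without the BF column at 12 h, ELOVL5 was -0.066 and GPAM -0.015 in BF against BA. With 1 time left out, BF against Control ran from -0.42 to 0.18 for ACLY, from -0.68 to 0.50 for ELOVL6 and from -0.23 to 0.16 for FADS1. BA against Control ran from -0.56 to 0.20 for ACLY and from -1.10 to 0.14 for ELOVL6. BF against BA ran from -0.17 to 0.074 for ACACA, from -0.016 to 0.50 for ACLY, from -0.28 to 0.11 for ME1, from -0.82 to 0.31 for THRSP and from -0.015 to 0.41 for GPAM. No member that passed the test changed sign under any alternative run.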
